A study of Homo sapiens with 3 samples.

Results

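The transcriptome described here is that of HEK293T cells that received a negative control siRNA, measured in 1 library of polyadenylated RNA. Its members are the genes and RefSeq isoforms whose value in this library carried the quantification status OK: 23186 of 23284 genes and 40743 of 41138 isoforms. The choice used the status alone and no level. The series holds 3 libraries, and the other two come from cells given an siRNA against ESRP2 or Arkadia; they were not compared here. Per the labels, the cells were grown with fetal bovine serum, took up the siRNA by reverse transfection with a lipid reagent, had no TGF-beta and were harvested 48 h after seeding. The cells are an established line, so the library shows 1 culture of that line and not kidney tissue, and there is no untransfected library beside it. Because there is 1 library, no test was made, and the error given in parentheses beside each level is the authors' confidence interval for that library. With 1 library the spread between cultures was not measured. What sources of error the interval covers is not stated in the sources used here.

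HEK293T is a human line made from embryonic kidney cells by transformation with adenovirus DNA, which brought in the viral E1A and E1B genes, and later given the SV40 large T antigen. E1A and large T bind the retinoblastoma protein family. It is widely used to make recombinant proteins and viral vectors, because it takes up foreign nucleic acid readily. Its cell of origin is debated: kidney, neuronal and adrenal features have all been described. Viral transcripts were not analysed here.

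Levels are in FPKM, the authors' fragment numbers divided by transcript length and library size, so genes of different length can be compared. A gene is called expressed here at an FPKM of at least 1. Expressed genes numbered 11871, or 51.2% of the 23186 genes, of which 6285 (27.1%) reached an FPKM of 10 and 873 (3.77%) reached 100. At the other end, 5120 genes were listed at 0 and 6195 lay between 0 and 1. The median was 1.19 over all genes and 11.1 over expressed genes. Where a lower bound of at least 1, or an FPKM threshold of 5 or 0.5, moved a list's count of expressed members by more than 1.5 times, the count so obtained is given in parentheses. A gene listed at 0 is not thereby shown to be silent, because genes used in most cells are also found at 0 in this library, as described below for the pseudoautosomal genes. Of 19029 genes with a coding RefSeq transcript 59.5% were expressed, against 13% of 4157 genes with non-coding transcripts only. For lists of coding genes below, 59.5% is a closer background than the 51.2% of all genes.

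The mRNA pool was concentrated in few genes. The highest gene held 3.67% of the summed FPKM, the 10 highest 12%, the 100 highest 37.2% and the 1000 highest 68.4%, and 271 genes together held 50%. FPKM divides fragments by transcript length, so a molecule of a short transcript weighs as much as one of a long transcript. By approximate reads, recovered from the interval bounds as described under the processing, the 100 genes with most reads held 20.7% and the 1000 with most reads 52.2%. Genes with FPKM of at least 100 had a median longest isoform of 1533 nt, against 2736 nt for genes from 10 to 100, 3597 nt for genes from 1 to 10 and 1836 nt for genes under 1. Across the 11120 expressed genes of 1000 nt or more, length and FPKM had a Spearman rho of -0.29, as a description across genes of 1 library.

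**Figure D1:**
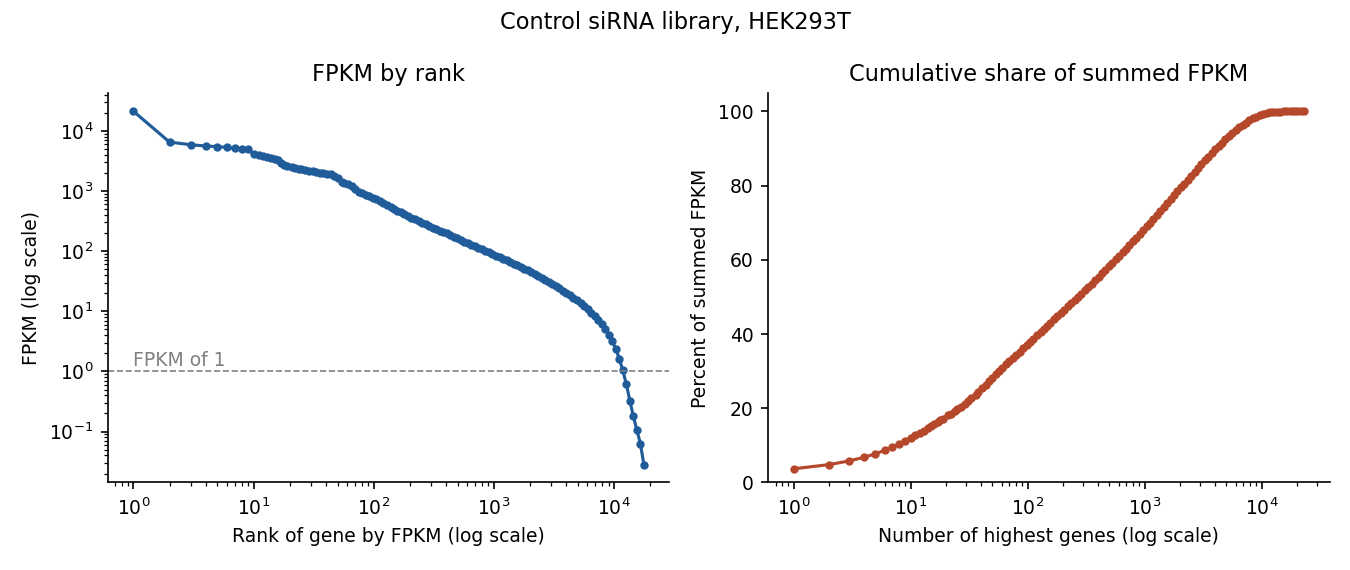
FPKM of the genes of the control siRNA library against their rank, both on log scales (left; genes above an FPKM of 0.01), and the cumulative percent of summed FPKM against the number of highest genes, on a log scale (right). Points are a sample of ranks; RPS18 stands at rank 1 with an FPKM of 21230.5, the dashed line marks the FPKM of 1 that 11871 genes reached, and the right curve passes 37.2% at 100 genes.

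Ribosomal protein genes led the pool. They encode the protein part of the cytosolic ribosome, the machine that translates mRNA. Of 87 genes with such names, 82 were expressed and 77 reached an FPKM of 100, with a median of 1379.7 against 1.19 over all genes. They held 28.2% of the summed FPKM and 11.6% of the approximate reads, and made up 8 of the 10 highest genes, 20 of the 25 highest with a longest isoform of at least 300 nt, and 55 of the 100 highest. The median was 1241 over the 34 small-subunit genes and 1417 over the 53 large-subunit genes.

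The highest gene of the library was RPS18, a small-subunit protein gene at chromosome 6, 33239852 to 33244281 (hg19), at 21230.5 (8796 to 25089.8). The RPS18 transcript is 542 nt long. Genes from 300 to 600 nt had an FPKM above the middle of their interval by a median factor of 1.08. That is a class median, and the FPKM of RPS18 itself lies nearer the upper than the lower bound of its interval. RPS4X, the X-linked copy of another small-subunit protein, followed at 6504 (3369 to 9532), and RPS2 was at 5590.2 (2996 to 8160.5). The interval of RPS18 overlapped that of RPS4X, and 0 of the 24 pairs of neighbours among the 25 highest genes had separate intervals, so the order of neighbours is not resolved. Over all 300 pairs of these genes 25 had separate intervals, and RPS18 was separate from 22 of the other 24. RPS6, the ribosomal protein known as a target of S6 kinase, stood at 5471 (2693 to 7936), RPL38 at 5302 (2717 to 7886) and RPSA, which is also known as a laminin receptor, at 5171 (2877 to 7456). The stalk proteins of the large subunit were close to each other, with RPLP1 at 5057 (2713 to 7413), RPLP0 at 3879.6 (2142 to 5616) and RPLP2 at 3352 (1304 to 3994). The paralogs RPS27L, RPL26L1, RPL39L and RPL22L1 were far lower, at 71.1 (33.8 to 108), 66.1 (28 to 101), 47.7 (20.05 to 71.6) and 17.2 (8.68 to 25.7). Many ribosomal protein genes have near-identical processed pseudogenes, so their single values are uncertain.

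Ribosomal protein mRNAs and those of elongation factors are known for a 5′ terminal oligopyrimidine tract, a C at the cap followed by an unbroken run of pyrimidines, through which mTOR signalling controls their translation. The RefSeq promoter table (GRCh38.p14, a later build than the hg19 of the expression files, so matched by transcript accession and then symbol and not by position) holds 250 bases before to 50 bases after each start. A start with C and then at least 4 pyrimidines was found at the first listed start of 44 of 70 ribosomal protein genes with an entry (62.9%, 95% Wilson interval 51.1 to 73.2%), against 4.04% of all 27305 genes with a promoter. The share was 16.8% among genes at FPKM 100 and above, 12.2% (9.96 to 14.9%) among those without the ribosomal protein genes, and 5.15% (4.54 to 5.83%) among genes from 10 to 100. It was 5 of 68 (7.35%) for mitochondrial ribosomal protein genes and 0 of 34 for proteasome genes (upper limit 10.2%). These intervals cover counting error only, and genes are not independent samples. Whether the first listed start is the one most used in these cells was not tested. The sequences below show the first listed start of 5 highly expressed genes that have the tract there and 2 that do not. They run from 60 bases before that start through the first 15 bases from it. They were chosen after their levels and starts were known, and capitals mark the pyrimidine tract at the start and, where present, the letters TATATAA or TATAA upstream.
RPS18: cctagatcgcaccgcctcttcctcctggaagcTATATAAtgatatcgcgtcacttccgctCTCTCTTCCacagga
RPL38: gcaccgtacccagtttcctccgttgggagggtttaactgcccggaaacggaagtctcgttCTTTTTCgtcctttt
RPLP1: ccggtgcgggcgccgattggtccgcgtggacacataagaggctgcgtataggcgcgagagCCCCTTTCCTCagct
EEF1A1: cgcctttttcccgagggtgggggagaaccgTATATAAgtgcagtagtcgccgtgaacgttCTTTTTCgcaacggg
EEF2: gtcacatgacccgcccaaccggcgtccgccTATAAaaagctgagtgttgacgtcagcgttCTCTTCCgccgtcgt
ACTG1: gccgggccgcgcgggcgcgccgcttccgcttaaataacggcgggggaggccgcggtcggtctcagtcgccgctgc
GAPDH: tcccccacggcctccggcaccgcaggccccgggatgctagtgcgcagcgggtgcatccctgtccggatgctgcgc
On GRCh38.p14 these windows are chr6:33272015-33272089 (plus strand) for RPS18, chr17:74203618-74203692 (plus) for RPL38, chr15:69452758-69452832 (plus) for RPLP1, chr6:73521018-73521092 (minus) for EEF1A1, chr19:3985449-3985523 (minus) for EEF2, chr17:81512785-81512859 (minus) for ACTG1 and chr12:6535204-6535278 (plus) for GAPDH. The tract is 9 bases long in RPS18, 7 in RPL38, 11 in RPLP1, 7 in EEF1A1 and 7 in EEF2. The TATA letters begin 28 bases before the start in RPS18 and 30 bases before it in EEF1A1 and EEF2. They were not found in the stretch searched upstream of RPL38 and RPLP1. Among ribosomal protein genes at FPKM 10 and above, the median was 1908 over 43 genes with the tract and 1240.1 over 24 without, with ranges from 17.2 to 21230.5 and from 66.1 to 6504 that overlap widely.

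**Figure D2:**
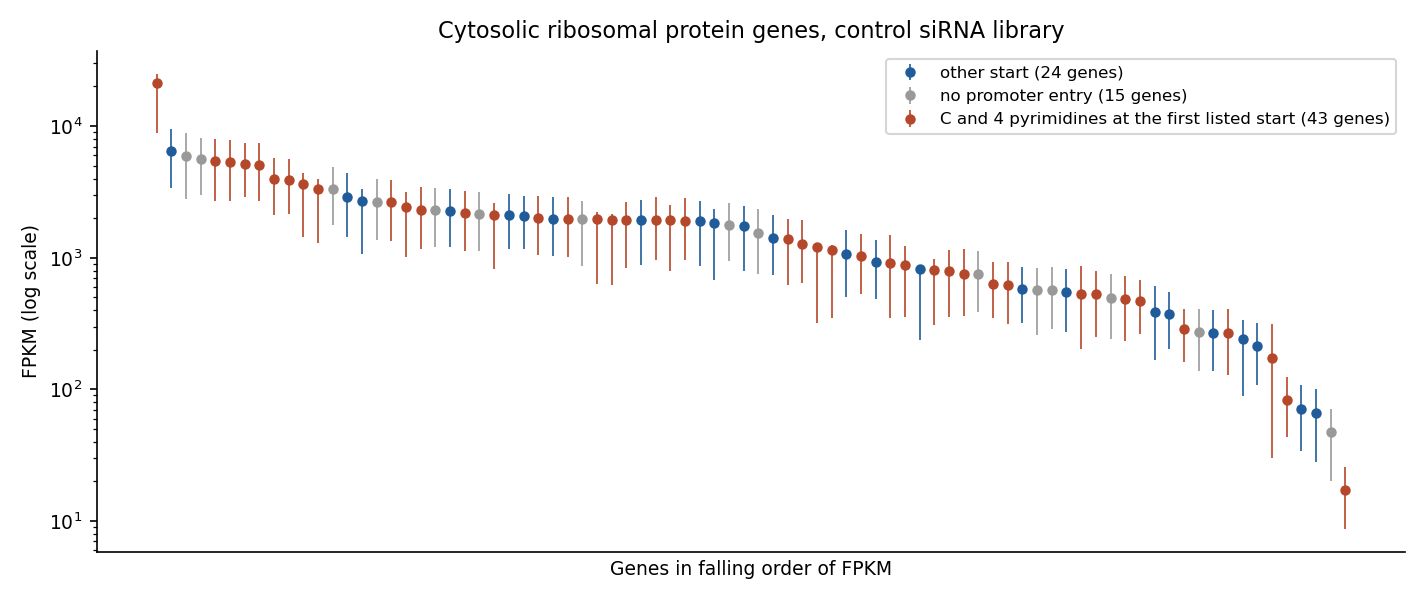
FPKM (log scale) of the 82 cytosolic ribosomal protein genes at FPKM 10 and above in the control siRNA library, in falling order, with bars for the authors' interval. Colour shows whether the first listed start has C and 4 pyrimidines; RPS18 is the highest at 21230.5 and RPL22L1 the lowest at 17.2, and genes of both kinds are spread over the order.

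Beyond genes with ribosomal protein names, those with the tract and an FPKM of at least 100 were led by GNB2L1 at 4142 (2279.7 to 5999). It encodes the ribosome-bound scaffold RACK1. Translation factors EEF1A1 and EEF2 followed at 2357 (1378 to 3333) and 1614 (922 to 2306), with the nucleolar chaperone gene NPM1 at 1479 (786 to 2172). Next came UQCRH at 1343 (519 to 1814), TUBB at 1341 (760.5 to 1916), COX7C at 1219 (607 to 1830) and FAU at 1073 (410 to 1707). After these stood TPT1, the translationally controlled tumour protein, at 1008 (492 to 1519). Of the elongation factor list, which also holds TPT1, BTF3 and EIF5A, 14 of 15 were expressed and 10 reached an FPKM of 100. The tissue-restricted form EEF1A2, known from neurons and muscle, was at 56.5 (28.9 to 83.9), 41.7 times lower than EEF1A1, with separate intervals. Initiation factors by name were expressed in 55 of 60 cases. EIF5A, which is counted in both sets, at 1459.6 (772 to 2147) and the helicase gene EIF4A1 at 929 (517 to 1341) were the highest.

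Other promoter letters were searched on both strands of the same window. The letters CCAAT stood in 46.5% (42.9 to 50.1%) of promoters of genes at FPKM 100 and above and in 38.6% (37.2 to 40.01%) of those from 10 to 100, against 35.7% of all promoters; the ribosomal protein genes had 32.9% (23 to 44.5%). CCGGAAG, a form of the ETS site, was present in 26.7% and 23.4% of these 2 classes, whose intervals overlap, and in 41.2% (30.3 to 53%) of mitochondrial ribosomal protein promoters, against 10.7% of all promoters. The YY1 letters AAGATGGCG were found in 13 of 68 mitochondrial ribosomal protein promoters (19.1%), against 1.85% of all promoters. None of these letters contains another of the motifs. For the rest, the shares at 100 and above and from 10 to 100 were 6.81% and 4.13% for the TATA box TATAAA, 71.1% and 73.6% for the GC box GGGCGG, 2.32% and 2.9% for the NRF1 letters, 3.95% and 3.89% for the CRE TGACGTCA and 11.9% and 11.5% for the E-box CACGTG. The E2F letters TTTGGCGC stood in 1.36% and 1.35%, and the ZNF143 letters in 1.23% and 0.575%. Over all promoters these 7 motifs stood in 12%, 44.6%, 1.36%, 1.98%, 7.43%, 0.659% and 0.256%, in the order TATA box, GC box, NRF1, CRE, E-box, E2F and ZNF143. The median GC content was 64.3% and 65.7% in the 2 classes and 59.3% in the ribosomal protein promoters. Matches are descriptions of these windows only.

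**Figure D3:**
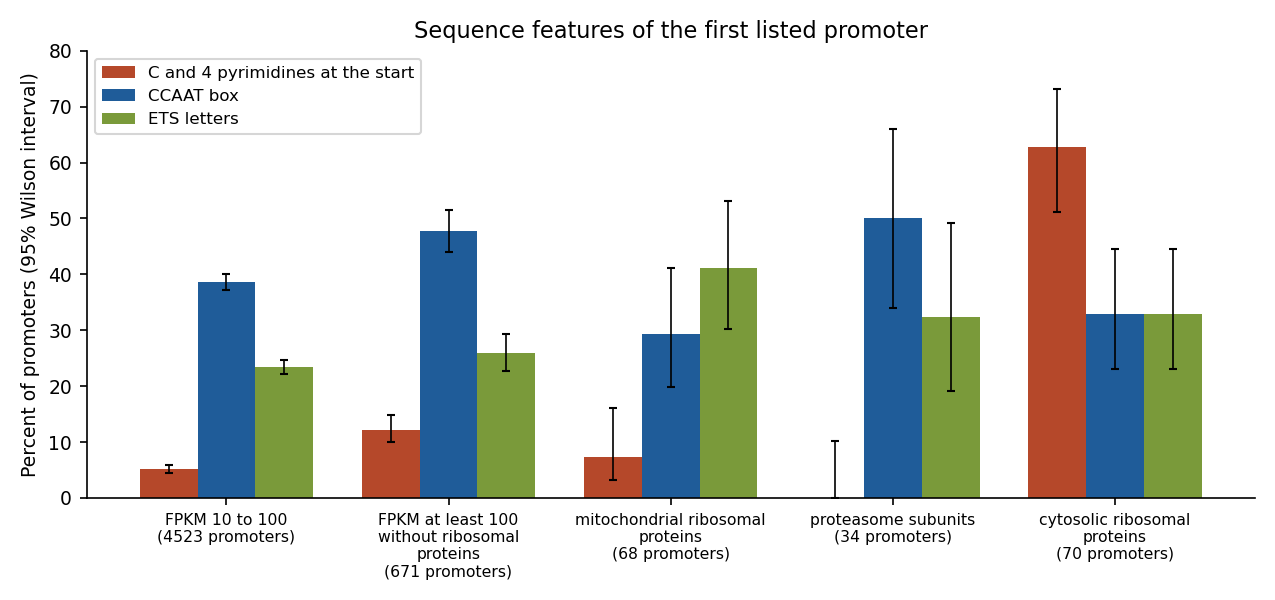
Percent of first listed promoters with 3 sequence features, by class of genes, with 95% Wilson intervals. The start tract is at 62.9% in cytosolic ribosomal protein genes and at 12.2% or less in the other 4 classes, and the intervals of the ETS letters in ribosomal protein genes and in the other genes at 100 and above overlap.

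Genes of energy metabolism were also high. GAPDH, the glycolytic dehydrogenase, was the highest gene outside the ribosome at 4964 (2850.1 to 7079.7), on chromosome 12 from 6643585 to 6647537 (hg19). Of 27 measured glycolytic genes 21 were expressed (median 47.5) and 10 reached 100, among them ALDOA at 1427 (769 to 2088), ENO1 at 1262 (733 to 1791) and TPI1 at 820.0 (452 to 1185). One paralog of each enzyme tended to carry the level. ALDOA exceeded ALDOC 109-fold, ENO1 exceeded the neuronal form ENO2 62.7-fold and HK1 exceeded HK2 8.01-fold, each with separate intervals, whereas LDHA at 720.4 (388 to 1053) and LDHB at 451 (228 to 673) had overlapping intervals. The germ cell form PGK2 was at 0.104 (0 to 0.248). Of 13 glucose transporters 7 were expressed (4 by the lower bound and 3 at FPKM 5), the highest being SLC2A1 at 41 (21.5 to 60.4), and the insulin-responsive SLC2A4 was at 0.734 (0.293 to 1.2). Among transporters of monocarboxylates and amino acids 16 of 20 were expressed, with the glutamine carrier SLC1A5 at 222 (108 to 336), the lactate carrier SLC16A1 at 135 (72.7 to 198) and SLC3A2, the heavy chain of amino acid exchangers, at 112 (54.3 to 170.3).

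A pair of mitochondrial families was expressed in full, the 38 complex I subunits of the respiratory chain, led by NDUFB10 at 543 (238 to 789) and NDUFA12 at 364 (147 to 543), and the 76 mitochondrial ribosomal proteins, led by MRPL23 at 349 (157 to 520.3) and MRPL13 at 254 (127 to 379.7). Of 18 measured genes for respiratory subunits and carriers that exist in tissue forms 10 were expressed. COX6A1, a subunit of cytochrome c oxidase, was at 3536 (1461 to 4501) while its heart and muscle form COX6A2 was at 0.646 (0 to 1.14), and COX4I1 was at 767 (365 to 1163) while its lung form COX4I2 was at 0.32 (0 to 0.613). ATP5J2, a subunit of ATP synthase, stood at 2468 (1142 to 3801). The adenine nucleotide carrier SLC25A5 was at 862 (446 to 1277), and SLC25A4, the heart and muscle form, at 5.1 (2.49 to 7.71). Of 10 measured creatine and adenylate kinase genes 8 were expressed. The brain-type creatine kinase CKB was at 1197 (642 to 1748) and the muscle form CKM at 0.0531 (0 to 0.101). CKMT1A and CKMT1B are near-identical copies, at 16.6 (8.3 to 24.8) and 18.8 (9.43 to 28.2), and their split is uncertain.

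Cytoskeletal genes were mainly non-muscle forms. The cytoplasmic actins ACTG1 and ACTB were at 2200.5 (1225 to 3177) and 933 (511 to 1350.4), with overlapping intervals, and the smooth muscle form ACTA2 was 174 times lower than ACTB. TUBB at 1341 (760.5 to 1916) and TUBB4B at 471 (257 to 686) led the beta tubulins, of which 7 of 9 were expressed; the neuronal form TUBB3 reached 14.7 (6.74 to 22.8). TUBA1B at 794 (434 to 1154) and TUBA1C at 291 (153 to 428) led the alpha tubulins, and TUBA3C was listed at 0. Of 14 lamin and intermediate filament genes 8 were expressed, and the lamina genes LMNB1 and LMNA stood at 106 (51.1 to 161) and 48.3 (23.2 to 73.6), with overlapping intervals. Of 39 kinesins 29 were expressed, the highest being KIF22 and KIF20A, both mitotic motors, at 65.4 (31.1 to 99.7) and 41.6 (16.7 to 66.7).

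**Figure D4:**
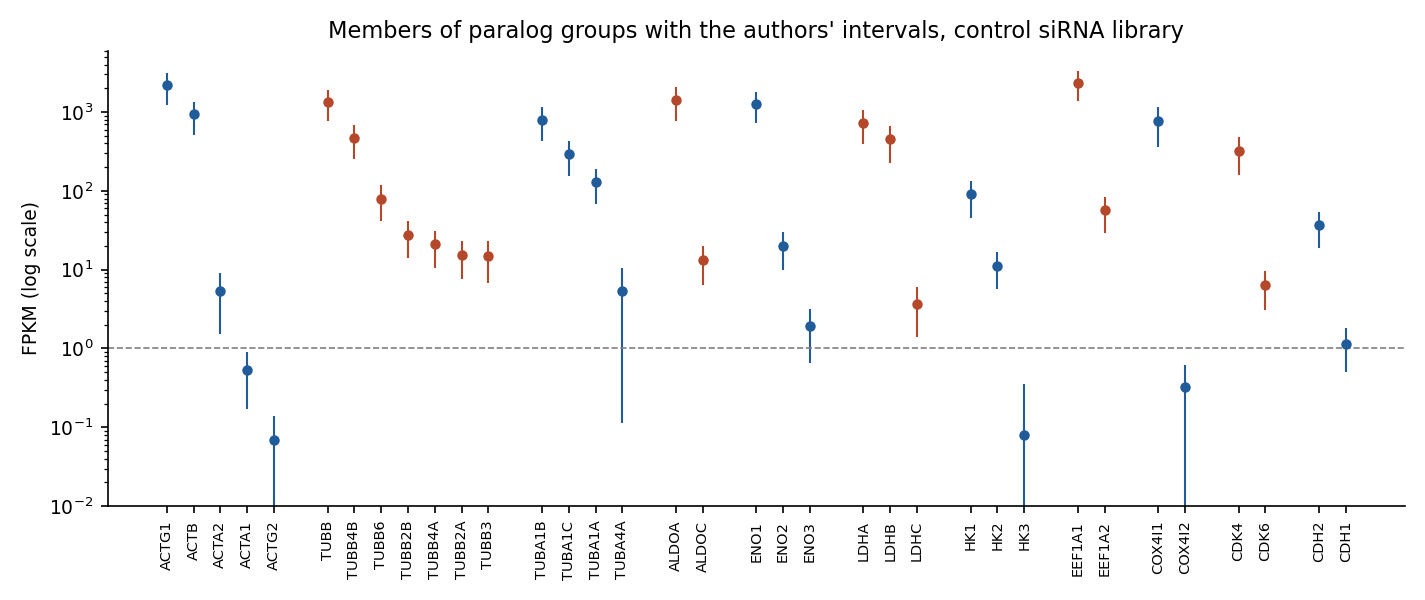
FPKM (log scale) of members of 11 groups of related genes in the control siRNA library, in alternating colours by group, with bars for the authors' interval; bars that reach the lower edge extend below 0.01, and the dashed line marks an FPKM of 1. In most groups 1 member stands well above the rest, as EEF1A1 at 2357 over EEF1A2 at 56.5, while ACTG1 and ACTB overlap, as do LDHA and LDHB.

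Genes of cell division were widely expressed. All 9 MCM genes, most of them for replication helicase subunits, were expressed, with MCM7 at 306 (163 to 449) and MCM5 at 305 (166 to 444). Of 16 cyclins 14 were expressed, with CCNG1 at 136 (68.7 to 204), the mitotic cyclins CCNB1 and CCNB2 at 110.3 (58.3 to 162) and 70.9 (36.1 to 106), and CCNA2 at 54.6 (21.2 to 88.1). Among D cyclins, CCND3 at 38.9 (18.8 to 58.9) was 4.24 times higher than CCND1, with separate intervals. UBE2C and UBE2S, the ubiquitin-conjugating enzymes of the anaphase-promoting complex, were the highest of 33 E2 genes, at 306 (147 to 464) and 298 (151 to 444).

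In the list of RB pathway and checkpoint genes 25 of 27 genes were expressed (median 13.4). CDK4, the kinase that phosphorylates RB in G1, was the highest at 317 (158 to 476), 49.7 times the level of its paralog CDK6. CDKN2A, which encodes the inhibitor p16 and the protein ARF, followed at 139.7 (65.8 to 214), above the kinase inhibitor gene CDKN1A at 21.7 (10.01 to 33.5) with separate intervals. E2F4 was at 91.3 (48 to 134), E2F1 at 51.2 (26.2 to 75.9) and RB1 at 11.6 (5.7 to 17.5). The epithelial stem cell factor TP63 was at 0.0493 (0 to 0.113). CDKN1C, the other gene of this list under 1, was at 0.845 (0.263 to 1.43).

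Of the MYC and RAS oncogene list 19 of 20 were expressed. Among the highest were MXD3, a MAX partner, at 104 (25.6 to 182), the transcription factor MYC at 70.04 (36.3 to 104) and the kinase AKT1 at 58.3 (27.3 to 89.2). HRAS was at 52.7 (23.9 to 81.4). MYCN, the neuroblastoma-associated relative of MYC, was the member under 1, at 0.836 (0.279 to 1.4).

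The lists of renal progenitor factors and of differentiated nephron markers differed in their share of expressed members. Of 22 renal progenitor factors 15 were expressed (68.2%), against 51.2% of all genes and 59.5% of coding genes. Their median was 4.15, against 1.19 over all genes. The coactivator CITED1 was at 31.9 (13.9 to 49.9), and the homeobox factors HOXA11 at 21.1 (10.6 to 31.7) and HOXD11 at 21 (10.3 to 31.5), with overlapping intervals. Expression of HOXA11 and HOXD11 was not particular to this list, because 35 of 39 HOX genes were expressed, as described below. SIX2, the marker of nephron progenitors, was at 13.9 (6.97 to 20.7), and the stromal progenitor factor FOXD1 at 16.3 (8.25 to 24.4). The kidney lineage factor PAX2 was at 2.13 (0.885 to 3.37), while PAX8, among the 7 members under 1, was at 0.0615 (0 to 0.173). Of 22 markers of differentiated nephrons 2 were expressed (1 at FPKM 5 and 5 at FPKM 0.5; 9.09%), namely PODXL, a podocyte sialoprotein also made by progenitors, at 15.3 (7.27 to 23.4) and the tubular endocytic receptor LRP2 at 2.78 (1.32 to 4.24). The slit diaphragm gene NPHS1 was at 0.0641 (0 to 0.134), the loop of Henle marker UMOD at 0.151 (0 to 0.324) and the water channel AQP2 at 0.0194 (0 to 0.0201). SLC34A1 and SLC22A8, proximal tubule transporters, were listed at 0.

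Of 28 neuronal markers 18 were expressed (64.3%, median 2.52), against 51.2% of all genes and 59.5% of coding genes. The highest was UCHL1, the neuronal ubiquitin hydrolase, at 250.2 (125 to 373), which was 6.61 times the next gene, STMN3, a stathmin, at 37.9 (19.3 to 56.4), with separate intervals. The intermediate filament genes INA, NEFL and NEFM were at 32.3 (16.5 to 48.1), 30.9 (15.8 to 46) and 18.3 (8.5 to 28), and the synaptic vesicle gene SYP at 31.2 (15.7 to 46.8). Enzyme and tubulin markers ENO2 and TUBB3 were at 20.1 (10.01 to 30.3) and 14.7 (6.74 to 22.8). Other defining neuronal genes were low: the migration gene DCX at 0.026 (0 to 0.0748), the vesicle fusion gene SNAP25 at 0.209 (0 to 0.815) and the dendritic gene MAP2 at 0.359 (0.116 to 0.603), with ELAVL4 and STMN4 listed at 0. The list therefore held both high and near-zero members.

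Adrenal markers were fewer. Of 12 adrenal cortex genes 1 was expressed, FDX1, a mitochondrial electron carrier that is not confined to the adrenal, at 12.2 (6.12 to 18.3); the steroidogenic genes STAR and CYP11A1 were at 0.124 (0 to 0.249) and 0.134 (0 to 0.261), and CYP17A1, HSD3B2 and NR0B1 were listed at 0. Of 14 adrenal medulla genes 5 were expressed (2 by the lower bound and 1 at FPKM 5), led by the transcription factors GATA2 and GATA3 at 9.17 (3.96 to 14.4) and 3.13 (1.32 to 4.94), with TH, the first enzyme of catecholamine synthesis, at 0.0478 (0 to 0.197).

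Epithelial and mesenchymal markers were both present. The shares expressed among all genes and among coding genes were 51.2% and 59.5%. Of 20 epithelial genes 8 were expressed (40%, median 0.25) and of 20 mesenchymal genes 12 (60%, median 2.4). At a threshold of 5 the counts were 5 and 5, at 10 they were 3 and 2, at 100 they were 1 and 1, and by the lower bound they were 5 and 9. The intermediate filament gene VIM, at 389 (211 to 568), exceeded the keratin gene KRT18, at 104 (47 to 162), 3.73-fold with separate intervals. KRT8, the usual partner of KRT18, had a wide interval at 5.91 (0 to 16.6). N-cadherin, CDH2, at 36.5 (18.7 to 54.2) exceeded E-cadherin, CDH1, at 1.16 (0.505 to 1.81) 31.6-fold. The splicing regulators ESRP2 and ESRP1 were at 14.8 (3.34 to 26.3) and 0.116 (0 to 0.275), the tricellular junction gene LSR at 20.7 (9.62 to 31.8), and the epithelial factor GRHL2 at 0.0461 (0 to 0.0963). The transcription factors TWIST1 and ZEB1 were at 7.97 (3.78 to 12.1) and 3.93 (1.74 to 6.13), while THY1 and FAP, fibroblast surface genes, were listed at 0.

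Of 20 pluripotency and oncofetal genes 10 were expressed (50%, against 51.2% of all genes and 59.5% of coding genes). The chromatin gene HMGA1 was at 268 (138 to 399), 15.7 times HMGA2 at 17.1 (8.11 to 26.1). The RNA-binding IGF2BP1, IGF2BP2 and IGF2BP3 were at 32.2 (16 to 48.4), 20.7 (10.4 to 31) and 14.4 (7.18 to 21.7), and LIN28B, a blocker of let-7 processing, at 18.2 (9.3 to 27.1). The core pluripotency factor SOX2 was at 4.05 (1.71 to 6.42) and POU5F1 at 0.148 (0 to 0.389), and NANOG and LIN28A were listed at 0. The telomerase gene TERT was at 2.07 (0.818 to 3.32).

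HOX genes, which specify position along the body axis, were expressed in 35 of 39 cases (89.7%, median 10.2). By cluster the counts were 11 of 11 in HOXA, 9 of 10 in HOXB, 8 of 9 in HOXC and 7 of 9 in HOXD. The highest was HOXB9 at 93.1 (49 to 137), on chromosome 17 from 46698519 to 46703835 (hg19), followed by HOXA10 at 43.1 (15.9 to 70.2) and HOXB6 at 34.5 (12.1 to 56.8). The intervals of HOXB9 and HOXA10 overlap. HOXB1 and HOXC12 were listed at 0, and HOXD1 and HOXD12 were at 0.697 (0 to 2.27) and 0.505 (0 to 0.929). HOXD13, HOXC10 and HOXD10, of the posterior groups, stood at 33.4 (16.8 to 49.9), 31.5 (16 to 47.1) and 23 (11.5 to 34.4).

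Few markers of unrelated cell types were expressed. Of 18 blood cell markers 2 were expressed (0 by the lower bound, 0 at FPKM 5 and 4 at FPKM 0.5), the higher being CD68 at 1.12 (0.405 to 1.88); PTPRC, the pan-leukocyte gene, was at 0.0603 (0 to 0.246) and the globin HBB was listed at 0. Of 14 hepatocyte markers 1 was expressed (0 by the lower bound and 0 at FPKM 5), CYP2E1 at 1.37 (0.554 to 2.16), with ALB at 0.227 (0.0747 to 0.411). None of 15 muscle markers reached 1 (3 at FPKM 0.5), the highest being TNNT2 at 0.998 (0.268 to 1.73). Of 12 endothelial markers 2 were expressed (1 by the lower bound and 0 at FPKM 5), FLT1 at 3.34 (1.09 to 5.6) and ESAM at 1.21 (0.494 to 1.93), with CDH5 and PECAM1 at 0.0197 (0 to 0.0203) and 0.0182 (0 to 0.0188). No marker of these 4 lists reached an FPKM of 10.

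**Figure D5:**
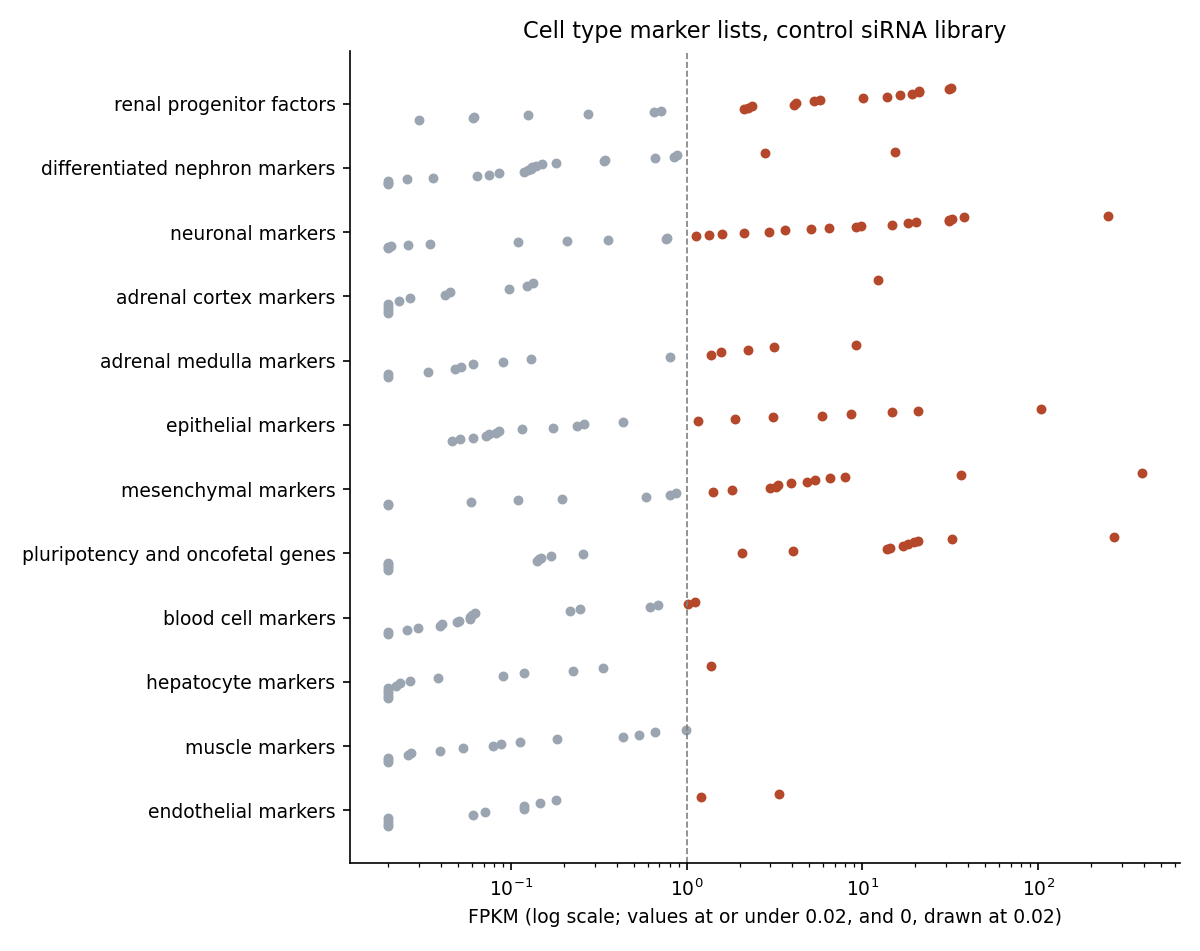
FPKM (log scale) of every gene of 12 marker lists in the control siRNA library; red points are at FPKM 1 and above, grey points below, and values at or under 0.02 are drawn at 0.02. Points above 10 stand in the renal progenitor, differentiated nephron, neuronal, adrenal cortex, epithelial, mesenchymal and oncofetal lists (UCHL1 250.2, KRT18 104, VIM 389, HMGA1 268), and no adrenal medulla, blood, hepatocyte, muscle or endothelial marker does.

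Receptor tyrosine kinases and TGF-beta family receptors were mostly under an FPKM of 10. Of 51 receptor tyrosine kinases 30 were expressed (18 at FPKM 5), 10 of them at 10 or more and none at 100. The expressed share was 58.8%, against 51.2% of all genes and 59.5% of coding genes, and the median 2.44 against 1.19 over all genes. The highest were PTK7 at 27.9 (13.2 to 42.6) and RYK at 26.4 (12.2 to 40.5), which are atypical kinases of Wnt signalling. FGFR1 at 19.2 (9.21 to 29.3) and EPHB4 at 18.2 (9.22 to 27.2) came next. IGF1R at 10.2 (4.86 to 15.6) and INSR at 3.79 (1.69 to 5.9) overlapped. EGFR was at 2.56 (1.06 to 4.07), and PDGFRA at 0.109 (0.0383 to 0.191). Of 14 TGF-beta family receptors 9 were expressed (64.3%, median 4.09), against the same 51.2% and 59.5%. ACVR1B, an activin receptor, was at 14.7 (6.81 to 22.6), BMPR1A at 9.08 (4.52 to 13.6), and TGFBR1 and TGFBR2 at 6.16 (2.86 to 9.47) and 5.89 (2.63 to 9.16). The endothelial receptor ACVRL1 was at 0.0952 (0.0207 to 0.189).

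HEK293T cells are a common host for studies of transfected receptors and channels. Of 68 measured G protein coupled receptors 23 were expressed (13 by the lower bound and 9 at FPKM 5; 33.8%), with the Hedgehog transducer SMO at 21.9 (11.1 to 32.6), the chemokine receptor CXCR4 at 12.4 (5.52 to 19.2), and the protease-activated receptors F2RL1 and F2R at 11.9 (5.94 to 17.8) and 10.2 (5.04 to 15.3). The muscarinic receptor CHRM3 was at 1.98 (0.856 to 3.09), the adrenergic receptor ADRB1 at 0.32 (0.117 to 0.528), and 14 receptors were listed at 0. Of 15 G protein alpha subunits 11 were expressed: GNAS, which stimulates adenylyl cyclase, at 859 (450.5 to 1271) was 11.3 times GNAI2, an inhibitory subunit, at 76.2 (35.9 to 117), and the transducin gene GNAT1 was at 0.0683 (0 to 0.148). The haematopoietic GNA15 was at 0.12 (0 to 0.236).

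Of 37 voltage-gated channel genes 8 were expressed (5 by the lower bound, 3 at FPKM 5 and 15 at FPKM 0.5; 21.6%, against 51.2% of all genes), among them the pacemaker channel gene HCN2 at 19.8 (9.87 to 29.7). The potassium channel gene KCNA5 was listed at 0. Of 30 measured store-operated, mechanosensitive and related channels 19 were expressed (10 at FPKM 5), the mitochondrial pores VDAC1 and VDAC2 at 191 (95.5 to 286) and 185 (91.8 to 279) being the highest. For calcium entry, ORAI1 at 22 (10.8 to 33.2) exceeded ORAI2 7.19-fold and its sensor STIM1 at 13.2 (6.17 to 20.3) exceeded STIM2 4.91-fold. Of the mechanosensitive pair, PIEZO1 was at 18.9 (8.28 to 29.5) and PIEZO2 at 0.0732 (0.0173 to 0.121). Of 14 sodium and calcium pump genes 10 were expressed (6 at FPKM 5).

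Of 34 innate sensor and interferon genes 12 were expressed; the receptors and transducers IFNGR2, IRF3, IFNAR2 and IFNGR1 were the highest, at 49.3 (23 to 75.6), 29.1 (6.18 to 52.1), 27.6 (11.6 to 43.6) and 27.6 (13.9 to 41.3). Among sensors of foreign nucleic acid and their partners, DDX58 (RIG-I) was at 0.968 (0.406 to 1.52), TLR3 at 0.109 (0 to 0.221) and TMEM173 (STING) at 0.509 (0.193 to 0.849), and MB21D1 (cGAS), AIM2, PYCARD and TLR2 were listed at 0. None of 18 interferon genes, 1 of 43 interleukin genes (IL17D, at 1.07 (0.406 to 1.71)) and 2 of 37 chemokine genes (CXCL16 and CXCL12, at 4.45 (0.395 to 8.61) and 1.37 (0.525 to 2.2)) were expressed. The interleukin count was 0 by the lower bound, 0 at FPKM 5 and 4 at FPKM 0.5, and the chemokine count 0, 0 and 4. Of HLA genes 11 of 26 were expressed (7 at FPKM 5), with the class I genes HLA-C and HLA-B at 120.5 (62.7 to 178) and 73.1 (37.4 to 109).

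Cell death genes were expressed in 16 of 26 cases (61.5%, against 51.2% of all genes and 59.5% of coding genes). The inhibitor BIRC5 (survivin), a cell division gene as well, was at 100.4 (48.9 to 152), the adaptor FADD at 34.1 (17.2 to 51), the TRAIL receptor TNFRSF10B at 26.9 (11.9 to 42) and DIABLO at 25 (11.5 to 38.4). The necroptosis genes RIPK3 and MLKL were at 0.045 (0 to 0.0873) and 0.168 (0 to 0.364), and TNFRSF10A was listed at 0.

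Of 30 measured adhesion genes 18 were expressed (60%, against 51.2% of all genes and 59.5% of coding genes). The highest of them were CTNNB1 (beta-catenin) at 167 (84.4 to 249.5), the desmosomal cadherin DSG2 at 55.9 (29.1 to 82.6) and CTNNA1 at 49 (25.4 to 72.7). Of 25 integrins 13 were expressed (8 by the lower bound and 6 at FPKM 5), the beta chains ITGB1 and ITGB5 being the highest at 24.5 (11.7 to 37.4) and 15.8 (7.86 to 23.7); the leukocyte gene ITGAL was at 0.0488 (0 to 0.105). Of 31 matrix genes 23 were expressed (15 at FPKM 5), with the basement membrane genes NID1, LAMC1 and LAMB1 at 27.4 (14.1 to 40.8), 26.6 (13.8 to 39.4) and 16.8 (8.55 to 25), and the collagen COL6A1 at 24.6 (12.5 to 36.7). Fibrillar COL1A2 and elastin, ELN, were at 0.0594 (0 to 0.124) and 0.0494 (0 to 0.184).

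The machinery of RNA interference, through which siRNAs act, was expressed in 13 of 17 measured genes. The exporter XPO5 was at 45.2 (23.5 to 67), the cofactor TARBP2 at 31.8 (14.4 to 49.1), DROSHA at 24.8 (11.6 to 38) and PRKRA at 24.7 (5.05 to 44.5). Of the Argonautes, EIF2C2 (AGO2, the slicer) was at 8.4 (3.8 to 13) and EIF2C1 at 6.74 (3.32 to 10.2). DICER1 was at 6.85 (3.29 to 10.4), while the germline gene PIWIL1 was at 0.0596 (0 to 0.129). Of 26 entry and viral receptor genes 23 were expressed, with BSG at 509 (263 to 755), CD81 at 224 (117 to 331) and the transferrin receptor TFRC at 86.7 (43.5 to 130.0); the protease gene TMPRSS2 was at 0.0772 (0 to 0.168).

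Chromatin genes were expressed in 24 of 25 cases. The histone chaperones RBBP7 and RBBP4 were at 235 (117 to 353) and 72.1 (35 to 109) and the maintenance methyltransferase DNMT1 at 68.3 (34.2 to 102). EZH2, the catalytic subunit of Polycomb complex PRC2, at 32 (15 to 49) exceeded EZH1 5.32-fold, and DNMT3B at 13.9 (6.28 to 21.4) exceeded DNMT3A 4.72-fold. DNMT3L was the member under 1, at 0.257 (0.0558 to 0.502). Of 22 imprinted genes 6 were expressed, with GNAS, GRB10 at 22.8 (10.4 to 35.3) and PLAGL1 at 18.5 (9.09 to 28) the highest, while IGF2 was at 0.244 (0.0816 to 0.417), H19 at 0.183 (0.0364 to 0.364) and MEG3, NDN and RTL1 were listed at 0.

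Of 29 measured long non-coding RNAs 23 were expressed (15 at FPKM 5). GAS5, SNHG5, SNHG8 and DANCR, hosts of small nucleolar RNAs, were at 243 (102 to 349), 225 (84.1 to 311), 220.4 (92.5 to 348) and 202 (99.1 to 306). MALAT1 and NEAT1, nuclear RNAs that are abundant in many cells, were at 3 (1.45 to 4.55) and 3.22 (1.5 to 4.92), and MIAT was listed at 0. Of 13 replication-independent histone genes 10 were expressed, with H2AFZ at 969 (482 to 1454), and of 73 replication-dependent histone genes 26 (8 by the lower bound and 5 at FPKM 5), whose mRNAs end in a stem-loop without a poly(A) tail; the highest of those was HIST1H2BK at 126 (59.9 to 192). The library was made from polyadenylated RNA, so low values of RNAs without a tail cannot be told apart from low expression. Whether this selection also lowered the values of MALAT1 and NEAT1 was not tested.

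Genes commonly used as references spanned a wide range: all 18 were expressed, at a median of 263, from GAPDH at 4964 and RPLP0 at 3879.6 to the TATA-binding protein gene TBP at 17 (7.88 to 26.1). Between them lay the cyclophilin gene PPIA at 680.3 (375 to 982), the purine salvage gene HPRT1 at 105 (53.2 to 157) and the lysosomal enzyme GUSB at 42.3 (21.6 to 63). B2M, the light chain of HLA class I, was at 137 (65.4 to 207). Of these, RPL13A and GAPDH are among the genes with many pseudogene copies.

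Transcription factor families differed in how many members were expressed, against 51.2% of all genes and 59.5% of coding genes. Of 49 forkhead genes 25 were expressed (14 at FPKM 5), with the cell cycle factor FOXM1 at 70.4 (34.1 to 107) and FOXC1 at 54.6 (28.2 to 80.9). Of 19 SOX genes 9 were expressed (2 at FPKM 5), with SOX12 at 19.2 (9.7 to 28.7) and SOX4 at 16.4 (8.29 to 24.5). Of 17 KLF genes 12 were, led by KLF16 at 14.1 (7.03 to 21.2) and KLF9 at 11.9 (5.91 to 17.9). The GATA family had 4 of 6, with GATA2 and GATA4, an endoderm and heart factor, at 9.17 and 8.01 (3.94 to 12.1). The PAX family had 4 of 9 (2 by the lower bound and 1 at FPKM 5), led by PAX3 and PAX6, factors of neural crest and of eye and brain, at 6.23 (2.85 to 9.6) and 4.39 (2.06 to 6.72), and the T-box family had 5 of 13 (3 at FPKM 5), led by TBX1 at 21.5 (9.47 to 33.5) and TBX3 at 8.19 (3.71 to 12.6). None of these 6 families had a member at 100.

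Most members of the RNA processing and transport families were expressed. Of 22 heterogeneous nuclear ribonucleoprotein genes, which package and splice pre-mRNA, 19 were expressed and 13 reached 100, with HNRNPA1 at 693 and HNRNPA2B1 at 532 (287 to 777). The SR splicing factors were led by SRSF3 at 295 (151 to 439.8) and SRSF9 at 295 (124 to 465). Of 15 RNA polymerase II subunits 14 were expressed, led by POLR2H at 119 (54 to 181) and POLR2E at 110.5 (53.4 to 167). Of 24 importins and exportins 23 were, with KPNA2 at 299 (161 to 437) and KPNB1 at 155 (83.7 to 227), and the nucleoporins were led by NUP210 and NUP188, at 67.5 (36 to 99.1) and 67.5 (32.6 to 103). Of 59 RAB GTPases, which direct vesicle traffic, 48 were expressed with a median of 6.81, RAB1B and RAB7A being the highest at 131 (68.8 to 193) and 88.5 (46.3 to 131). Of 13 septins 11 were expressed, with SEPT2 at 121 (22 to 221) and SEPT8 at 41.4 (19.7 to 63.2).

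Metabolic and detoxification families were mixed. SLC25A5 and the phosphate carrier SLC25A3, at 862 and 383 (205 to 559.9), were the highest solute carriers. Of 331 with SLC names 174 were expressed (111 at FPKM 5), or 52.6%, against 51.2% of all genes and 59.5% of coding genes. Of 16 glutathione S-transferases 8 were, led by GSTP1 at 711 (352 to 1062) and GSTO1 at 103 (48.7 to 157), and of 28 aldo-keto reductases and aldehyde dehydrogenases 15, led by AKR1B1 at 353 (184 to 522) and ALDH18A1 at 132 (65.1 to 199). Of 55 cytochrome P450 genes 13 were expressed (5 by the lower bound and 4 at FPKM 5): the sterol demethylase CYP51A1 at 38.2 (17.6 to 58.8) and CYP2J2 at 8.59 (4.11 to 13.1) were the highest. Of 21 UDP-glucuronosyltransferases 1 was (0 at FPKM 5 and 2 at FPKM 0.5), UGT3A2 at 2.81 (1.11 to 4.54).

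Among regulators and surface proteins, 40 of 70 TRIM genes were expressed (20 at FPKM 5), with the corepressor TRIM28 at 265 (144 to 385) and TRIM27 at 47.8 (24.8 to 70.9), and 13 of 24 dual-specificity phosphatases, led by DUSP3 and DUSP14 at 27.4 (13.9 to 40.8) and 27.3 (13.5 to 41.1). Of 12 annexins 7 were, with ANXA5 at 207 (109 to 306) and ANXA2 at 89.7 (41.7 to 138). Of 18 S100 genes 4 were, led by S100A11 and S100A13 at 136 (53.4 to 205) and 68.3 (9.61 to 127); of 15 galectins 1 (2 at FPKM 0.5), LGALS1, was at 5.19 (1.65 to 8.12). Among MAGE and GAGE genes 4 of 47 were expressed, the ubiquitous MAGED1 and MAGED2 at 142 (71.4 to 214) and 99.4 (47.6 to 151) being the highest. Of 43 collagens 14 were expressed (7 at FPKM 5), with COL6A1 and the cartilage collagen COL2A1 at 24.6 and 15.3 (7.29 to 23.2). Of 83 heat shock protein genes 56 were.

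Channel and receptor families were mostly under 1: 19 of 94 potassium channel genes were expressed (9 by the lower bound, 6 at FPKM 5 and 33 at FPKM 0.5), among them KCNG1 at 21.4 (10.7 to 32.1); 2 of 26 glutamate receptors (1 by the lower bound, 0 at FPKM 5 and 5 at FPKM 0.5), GRID1 at 3.63 (1.69 to 5.57) and GRIN2D at 1.19 (0.511 to 1.84); and 2 of 19 GABA receptors (1 at FPKM 5 and 4 at FPKM 0.5), among them GABRD at 3.95 (1.79 to 6.1). Of 91 orphan GPR receptor genes 16 were (9 at FPKM 5), GPR108 and GPR107 at 31.1 (15.7 to 46.4) and 15.2 (7.19 to 23.2). Of 135 intergenic LINC RNA genes 14 were (7 by the lower bound and 6 at FPKM 5), LINC00493 at 51 (17.4 to 67.2) and LINC00263 at 22.8 (10.4 to 35) being the highest.

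Some families were expressed in full or nearly so, and others hardly at all. All 6 peroxiredoxins, all 6 14-3-3 proteins and all 12 SR splicing factors were expressed, and so were 34 of 39 proteasome subunits, 8 of 9 chaperonin genes, 32 of 33 E2 ubiquitin enzymes and 19 of 20 nucleoporins. HSPA8 and HSP90AB1, chaperone genes, were at 1287 (708 to 1867) and 1151 (656 to 1645), YWHAE at 779 (414 to 1144) and PRDX1 at 586 (296 to 878). Among ZNF-named zinc finger genes 335 of 529 (63.3%) were expressed (122 at FPKM 5), with a median of 1.76 and 3 genes at 100 or more. None of 88 keratin-associated proteins, 27 taste receptors, 42 defensins, 55 clustered protocadherins or 11 aquaporins were expressed, and 1 of 390 olfactory receptor genes was, the pseudogene OR7E14P at 3.87 (1.66 to 6.08), with 0 at FPKM 5. At FPKM 0.5 the counts were 1 keratin-associated protein, 1 defensin, 2 protocadherins and 2 aquaporins. Of 55 keratins 4 were expressed (2 by the lower bound) and of 23 claudins 2, CLDN12 at 8.23 (3.78 to 12.7) and CLDN15 at 7.22 (3.08 to 11.4).

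Among the autosomes and the X chromosome the share of genes expressed ranged from 40.4% on the X chromosome and chromosome 21 to 57.8% on chromosome 16. On the X chromosome the genes of the pseudoautosomal regions, which have an identical copy on the Y chromosome, were nearly all without signal: 16 of 18 were listed at 0 and 17 had an interval of 0 to 0. They include SLC25A6, an adenine nucleotide carrier, and CD99. How the authors treated reads that map to both copies is not given in the sources used here, so silence and reads left unassigned cannot be told apart.

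Isoform use was described for 3803 genes that have 2 or more isoforms whose FPKM values add up to at least 5. In 1442 of them (37.9%) the largest isoform held at least 90% of the sum, in 261 it held under 50%, and its median share was 82.8%. The pyruvate kinase gene, listed as PKM2, makes muscle-type M1 and proliferative M2 forms by choice of an exon; the M2 form stood at 713 (380.3 to 1049), 94.3% of the gene, and the M1 form was listed at 0. LMNA gave lamin C at 44.8 (20.2 to 69.4) and lamin A at 3.58 (0 to 9.29). The longer BCL2L1 form, which promotes survival, was at 9.13 (3.02 to 15.2) and the short, death-promoting form at 5.05 (0.503 to 9.71), with overlapping intervals. The main RAC1 form was at 114 (55.2 to 174) and RAC1b at 4.66 (0 to 16.6), and the general CDC42 form was at 118 (56.6 to 179.6) and the brain form at 2.53 (0 to 12.8).

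The genes at FPKM 100 and above with the smallest largest share included PCBP2, TMEM106C, MORF4L2, CNBP, SERBP1, SET, EEF1B2, HMGA1 and PSMA3. In PCBP2, an RNA-binding protein gene, the largest of 7 isoforms held 23.3% and was at 65.3 (4.51 to 129), with the next at 64.6 (2.33 to 129). In HMGA1 the first of 6 isoforms held 46.7% and was at 125 (35.3 to 215), with the next at 118 (32.1 to 204). For all 10 genes the intervals of the 2 highest isoforms overlapped, so which is the larger is not resolved. The 2 highest isoforms of these genes differ in length by 12 to 301 nt.

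Some genes share their listed locus with a near-identical or related entry. RPL13A was at 914 (346 to 1480.0) and RPL13AP5, listed at the same position but not of status OK, at 2729 (1086 to 4311). H3F3A was at 7.88 (0 to 40.1) and H3F3AP4, also not of status OK, at 585 (296 to 876). HNRNPA1 was at 693 (216 to 1174) and HNRNPA1P10 at 1348 (568 to 2133), with overlapping intervals. TMEM183A was at 4.38 (0 to 15.6) and TMEM183B, again not of status OK, at 123 (58.1 to 188). EIF5A, listed at another position than the related EIF5AL1, was far above it; EIF5AL1 was at 20.1 (10.1 to 29.96), with separate intervals. How reads were divided between such entries is not given in the sources used here, so the levels of these genes are uncertain. Genes under 300 nt also have inflated and unsteady FPKM: the FPKM exceeded the middle of its interval by a median factor of 1.16 for 57 of them, 1.08 for 106 genes from 300 to 600 nt and 1 for longer ones, and 43 genes lay outside their own interval. Of 1031 microRNA precursor genes 1010 were listed at 0 and the other 21 lay between 24.1 and 116, and of 243 small nucleolar RNA genes 213 were listed at 0, so these classes say little here.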

How the data were processed

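RNA of HEK293T cells was measured in 1 control siRNA library. Per the labels' protocols, polyadenylated RNA was selected and libraries were made and read on an Ion semiconductor platform. The authors made the deposited FPKM values, per the file headers given with a lower and an upper bound and a quantification status for each gene and RefSeq isoform. TopHat2 2.0.10, Bowtie2 2.1.0, Cuffdiff and Cufflinks 2.1.1 and the build hg19 are named, without order or settings, in the submitters' processing notes. The level of the intervals, any use of strand and the handling of reads with several matches were not stated there or in the labels.

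From the deposited FPKM, genes and isoforms with status OK were kept, whatever their level; 98 genes were left out, of which 8 had an FPKM of at least 1 and which together held 0.795% of the summed FPKM. Expressed means FPKM of at least 1. A difference in level between genes is judged only by whether the authors' intervals are separate. No counts were used. The lower bounds of low genes with 1 isoform, at least 1000 nt and FPKM under 0.6 fell on whole steps (tolerance 0.01) in 967 of 1002 cases, which makes 1 read on 1 kb worth an FPKM of 0.0839, or about 11.9 M reads in all. Approximate reads are FPKM times isoform length over this value, and are estimates; the median was 4 for genes between FPKM 0 and 1 and 3580 at 100 and above. The median interval half-width was 94.8% of the FPKM for genes under 1 and above 0 and 50% at 100 and above.

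Gene lists (44) and families by symbol (59) were counted. Promoters of RefSeq (GRCh38.p14) were matched by transcript accession, then symbol; the first listed start of each gene was used. Motif shares are not given for genes under FPKM 10 and for the elongation factor list, because fewer than 80% of their genes had an entry. Intervals of shares are 95% Wilson intervals and cover counting error only. The scripts were tested on simulated data with pandas 2.3.3, numpy 2.4.6 and scipy 1.17.1 under Python 3.11.15.

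Members and lists were chosen with earlier results of these data known. Named are the 25 highest genes with a longest isoform of at least 300 nt, up to 4 highest members and low defining members of each list, the highest 2 members of each family, set isoform pairs and the 10 genes at FPKM 100 and above with the smallest largest isoform share; other genes were added after their values were seen, and some genes that these rules select are not reported here. Also chosen then were the start tract, the gene pairs compared, the pseudoautosomal and copy genes, the promoters shown, and a correction of the hnRNP and interleukin patterns, which had also matched a pseudogene and receptors. The alternatives tried were other thresholds, interval bounds, summed isoforms, length and status filters, TPM, promoter windows and 3 equal groups of expressed genes.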

Additional observations from a re-analysis of the deposited data

How the results depend on the processing

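The number of expressed genes stayed within 1.5 times under the 7 alternatives run, from 8474 at an FPKM threshold of 5 to 12959 at 0.5, with 9849 by the lower bound of the interval. The share of summed FPKM in the 100 highest genes was 22.5% without cytosolic ribosomal protein genes and, as an alternative chosen after seeing the data, 20.7% by approximate reads. Genes with a dominant isoform numbered 768 at a summed FPKM of at least 20, where fewer genes enter. The CCAAT share at FPKM 100 and above was 32.8% with 100 bases before the start and, chosen after seeing the data, 51.5% with any listed start. Among 3 equal groups of expressed genes it was 40.4% (38.7 to 42.1%) in the highest and 38.5% (36.8 to 40.2%) in the middle group. These intervals overlap, and in the lowest group fewer than 80% of genes had an entry. The start tract share of ribosomal protein genes was 68.6% with any listed start. It is a share that the shorter window upstream cannot change by construction. Of 103 lists and families, the number of expressed members moved by more than 1.5 times for 15 at a threshold of 0.5, for 36 at 5, for 20 by the lower bound and for 0 with summed isoforms. No paired analysis was possible because each group has 1 library and no comparison was made. At this depth the 6195 genes with an FPKM between 0 and 1 rest on a median of 4 approximate reads, and 2136 of them (34.5%) have a lower bound above 0; 450 expressed genes have an interval that reaches 0.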
